A study of Bos taurus with 8 samples.

Results

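S100 proteins are small calcium-binding proteins with a pair of EF-hand loops, and most of them act as dimers that change shape when calcium enters a cell and then bind a partner protein. Inside cells they bind annexins, myosin and other cytoskeletal or membrane proteins, and some are also released and bind receptors such as RAGE (the product of AGER) and TLR4. S100A4 is best known from fibroblasts and other mesenchymal cells, S100A8, S100A9 and S100A12 from myeloid cells, and several others from epithelia.

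The set comprised 9 bovine S100 genes, S100A1, S100A2, S100A4, S100A6, S100A8, S100A9, S100A10, S100A11 and S100A12, found through the RefSeq accession that each array probe carries. Of the 9 genes, 8 had a named probe, with 14 of the 26743 named probes of the array between them, and no probe could be named S100A6. The members were chosen on measured values, with their levels in the embryo-derived and somatic cells known, so their differences between these cells are given as a description with no test. A gene was tested if its signal was well above background, by the flag of the scanner software, on every array of at least 1 condition. This held for 7 of the 9 genes, among 10958 genes tested of 12603 named.

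The RNA of the 8 one-colour arrays came from HanWoo, the Korean native cattle. It was taken from stem-like cells grown out of embryos, called eSLCs, and from cultured somatic cells, called SCs. The eSLC lines were I2 and I9 from in vitro produced embryos (IVP-eSLCs, passages 35 and 30), N2 and N7 from nuclear transfer embryos made with ear skin donor cells (NT-eSLCs, passages 36 and 30), and P1 and P4 from parthenogenetic embryos (PA-eSLCs, passages 31 and 36). All 6 lines grew on mitomycin C-treated mouse STO feeder cells in a medium with the 3 inhibitors PD184352 (0.8 μM), SU5402 (2 μM) and CHIR99021 (3 μM), whereas SCs, taken at passages 5 and 10, grew in medium with 10% serum. Culture medium, feeder cells, passage and cell type therefore differed together between eSLCs and SCs, and any part of feeder RNA in the eSLC signals was not tested. Each line is 1 culture, each condition has 2 arrays, and it is not known whether SC P5 and SC P10 were separate cultures, so p-values measure the spread between these samples.

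Signals are normalized signals, the background-subtracted intensity with the 75th percentile of each array set to 1000, and values below a common floor of 13.3 were raised to it. They were compared between arrays for 1 gene at a time, since probes differ in brightness. Between 71.2% and 76.7% of the spots of an array were well above background and 0 were saturated. In bulk RNA, fewer cells of a type and less RNA per cell cannot be told apart. The labels name stem-like cells and somatic cells, and give no tissue for SCs. Fibroblast and trophectoderm marker lists, which name neither labelled type, were examined as a description. Of 14 fibroblast markers tested, 12 were lower in eSLCs and 0 higher, COL1A1, THY1 and PDGFRA with differences of -5.87, -5.84 and -5.23 on the log2 scale. The PDGFRA call was lost without either SC array. Of 16 trophectoderm markers tested, 13 were higher and 0 lower, among them CDX2, which was not well above background in SCs, GATA3 and KRT18. The summed signal of the fibroblast list lay between 13710 and 71360 in eSLCs and between 613700 and 720900 in SCs. That of the trophectoderm list lay between 599300 and 1772000 in eSLCs and between 17830 and 18040 in SCs. These sums moved with every difference between eSLCs and SCs given here, and their part in it was not tested.

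S100A4, which binds non-muscle myosin and marks fibroblasts and motile cells, had by far the widest gap of the set. Its signal was 45.4 in I2, 104 in I9, 209 in N2, 87.0 in N7, 51.4 in P1 and 94.0 in P4, whereas SC P5 gave 148900 and SC P10 gave 204700. All 6 eSLC arrays were below both SC arrays, and the nearest eSLC and SC arrays were 714-fold apart. The geometric mean in SCs was 2024-fold that in eSLCs, a difference of -10.98 on the log2 scale, where the SD within conditions lay between 0.32 and 0.89 (n = 2 each). It ranked 6 among the falls of the 10958 genes. The second probe of the gene gave a difference of -11.19. The gap was as wide within each slide, at -10.97 on slide 1 (I2, I9, N7 and SC P5) and -11.00 on slide 2 (N2, P1, P4 and SC P10). By origin, SCs exceeded IVP-eSLCs 2546-fold, NT-eSLCs 1296-fold and PA-eSLCs 2512-fold. S100A4 was still well above background on all 8 arrays.

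**Figure D1:**
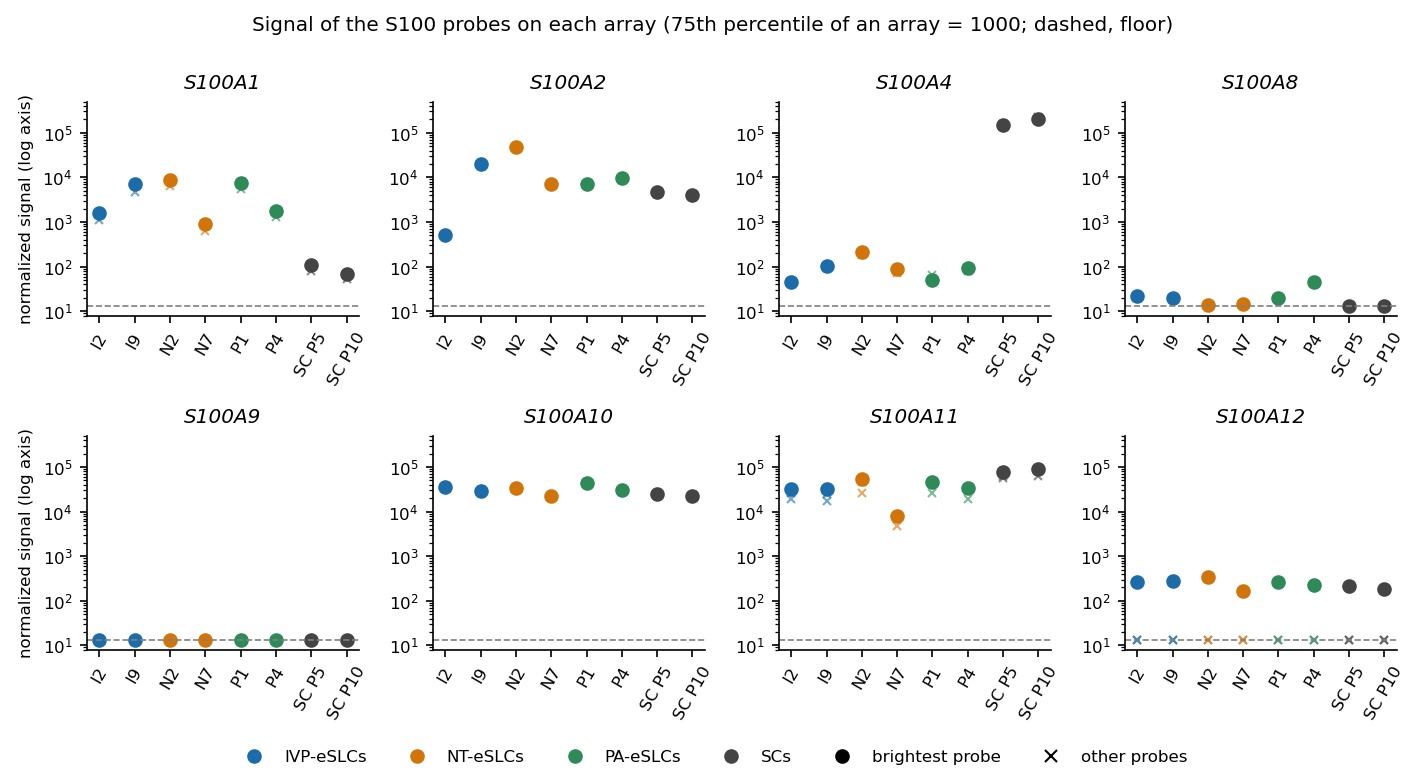
Normalized signal (log axis, 75th percentile of an array = 1000) of the 8 S100 members with a named probe on each of the 8 arrays, coloured by condition, with circles for the brightest probe, crosses for other probes and a dashed line at the floor of 13.3. S100A4 lies between 45.4 and 209 in the 6 eSLC lines and at 148900 and 204700 in SCs, S100A1 shows the opposite order, and S100A10 and S100A12 overlap between the cells.

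S100A11, a partner of annexin A1 that is abundant in keratinocytes and other epithelia, was also lower in every eSLC line. Its signal was 32660 in I2, 31580 in I9, 52780 in N2, 8134 in N7, 45280 in P1 and 34660 in P4, and the SC arrays gave 77730 (P5) and 91450 (P10). N7 was the lowest by far, and the nearest eSLC and SC arrays, N2 and SC P5, were only 1.47-fold apart. The difference was -1.50 on the log2 scale (SCs 2.83-fold higher), and its 3 probes gave -1.85 to -1.50. Without N7 the difference was -1.05, and it was -1.94 within slide 1, which holds N7, and -1.07 within slide 2. S100A10, which pairs with annexin A2 at the plasma membrane, did not separate the cells. Its signal was 35860 and 29430 in the IVP lines, 33600 and 22270 in the NT lines, and 44320 and 30110 in the PA lines, against 25380 and 22660 in SCs. Of the 6 lines, 5 were above both SC arrays and N7 was below both. The difference was 0.41, and other processing took it to 0.07 with quantile normalization and to -0.10 with the series matrix values.

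S100A1, which regulates calcium handling and is best known from heart and skeletal muscle, went the other way and was higher in every eSLC line. Its signal was 1619 in I2, 7001 in I9, 8919 in N2, 909 in N7, 7644 in P1 and 1796 in P4, while SC P5 had 109 and SC P10 had 66.9. The nearest arrays, N7 and SC P5, were 8.35-fold apart. The eSLC mean was 38.5-fold that of SCs, 5.27 on the log2 scale, and the second probe gave 5.15. The difference was 39.5-fold for IVP, 33.4-fold for NT and 43.4-fold for PA, although the SD within an origin lay between 1.48 and 2.33 on the log2 scale. The difference was 4.32 within slide 1 and 6.21 within slide 2.

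S100A2, a mostly nuclear protein of basal epithelial cells, varied more among the eSLC lines than between them and SCs. Its signal was 510 in I2, 19870 in I9, 48300 in N2, 6946 in N7, 7024 in P1 and 9499 in P4, and the SC arrays gave 4677 (P5) and 3989 (P10). I2 was below both SC arrays and the other 5 lines were above both. The mean difference of 0.85 became -0.03 without I9 and 1.74 without I2, and it was -0.18 within slide 1 and 1.89 within slide 2, so it has no settled direction.

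The calgranulins S100A8, S100A9 and S100A12 are released by neutrophils and monocytes and act on RAGE and TLR4. S100A8 was dim throughout, at 21.5 in I2, 19.7 in I9, 14.1 in N2, 14.3 in N7, 20.2 in P1 and 44.9 in P4, and at the floor in both SC arrays. It was well above background on 6 of 6 eSLC arrays and on 0 of 2 SC arrays. The eSLC mean was 1.55-fold the floor, a difference of 0.64 on the log2 scale that became 0.29 with normexp background correction. N2 and N7 lay just above the floor, and no size is read from such signals. S100A9, with which S100A8 forms calprotectin, was at the floor and not well above background on all 8 arrays, so it was not tested. The brightest S100A12 probe gave 267 and 280 in the IVP lines, 334 and 170 in the NT lines, and 261 and 231 in the PA lines, against 210 and 182 in SCs. Again 5 lines were above both SC arrays and N7 below both, with a difference of 0.37 that became -0.03 with the series matrix values. The other 2 S100A12 probes were at the floor on all 8 arrays, so the probes of this gene disagree. Of 10 myeloid and leukocyte markers tested, 4 were called higher in eSLCs (40%, where 19.7% of all genes were) and 0 lower. All 6 eSLC arrays were above both SC arrays for 7 of the 10 (where 34% of all genes were) and below both for 2 (where 23.6% of all genes were). Summed signals were 13810 to 45220 in eSLCs and 4729 to 4735 in SCs. AIF1, a calcium-binding protein of macrophages, rose by 8.49 with an SE of 0.87 (limma adjusted p = 0.000712), from the floor in both SC arrays to between 1844 and 16250. SPI1, the myeloid transcription factor, rose by 2.55, from the floor to between 47.6 and 242, with 0.04 by another probe, and lost its call without either SC array. CD14 rose by 1.27 and PTPRC by 2.15 by the brightest probe, with -0.01 and 0 by another, and the CD14 call was lost in 9 of 19 other settings, among them without I9, P1, P4 or either SC array, and CSF1R was at the floor in all 6 lines. Whether myeloid cells were present, and any part of them in the S100A8 signal, was not tested.

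A gene outside the set was called by limma at a Benjamini-Hochberg adjusted p under 0.05 and a difference of at least 2-fold. Arrays raised to the floor show no spread, so the p of a gene at the floor in eSLCs or in SCs also depends on the floor. The gene lists were also chosen with earlier results of these data known, so their counts and p-values are not independent tests. Of all genes tested, 19.7% were called higher in eSLCs and 15.7% lower, and no calls are given for the members in this contrast. S100A1 and S100A8 had all 6 eSLC arrays above both SC arrays, as 34% of all genes did, and S100A4 and S100A11 had all 6 below, as 23.6% did. The median difference was 0.41 over the 7 members and 0.23 over all genes. Since the members were chosen with this contrast known, nothing is read from these counts.

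**Figure D2:**
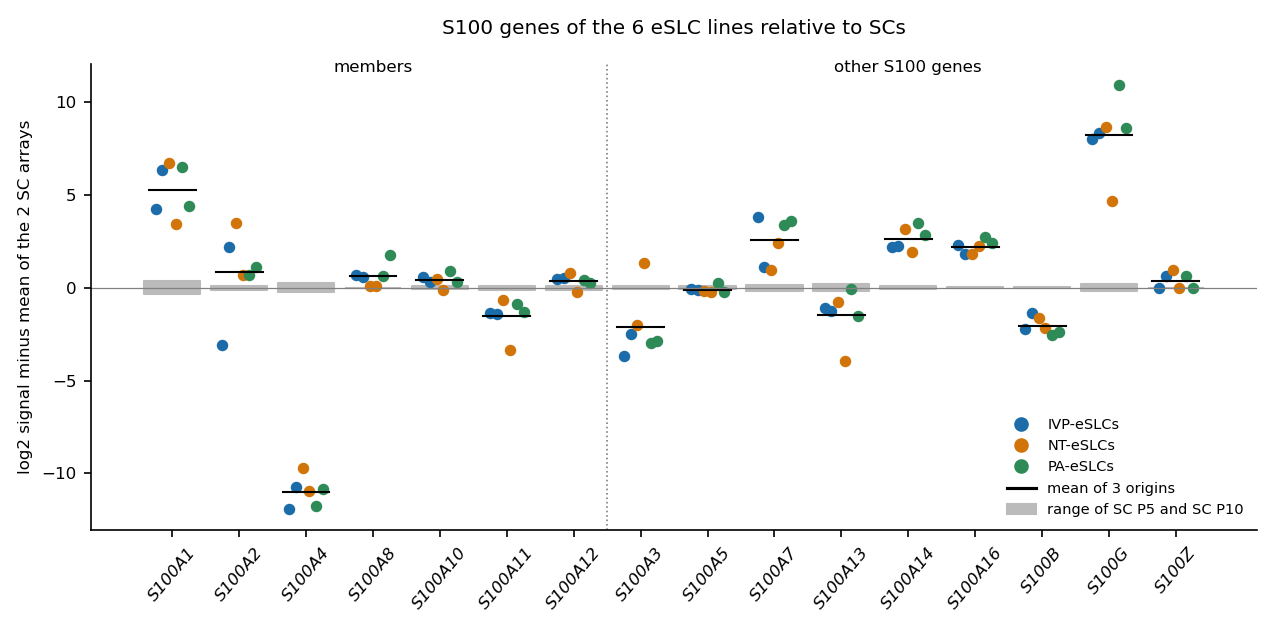
Log2 signal of each of the 6 eSLC lines minus the mean of the 2 SC arrays for the 7 members tested (left of the dotted line) and 9 other S100 genes, with points coloured by embryo origin, black bars for the mean of the 3 origins and grey bars for the range of SC P5 and SC P10. S100A4 (-10.98) and S100G (8.20) lie at the ends, and the lines of S100A2 fall on both sides of 0.

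A question of the study was whether the origin of the embryo changes expression. Between NT-eSLCs and IVP-eSLCs, 0 of the 7 members were called by limma, as were 0% of all genes. At an unadjusted p under 0.05 there were 0 members and 306 of the 10958 genes tested. Between PA-eSLCs and IVP-eSLCs, again 0 members and 0% of all genes were called. At an unadjusted p under 0.05 there were 0 members and 568 of the 10958 genes. With only 7 members, 0 at such shares says little. The largest difference was that of S100A2, 2.52 higher in NT than in IVP lines with an SE of 1.75 on the log2 scale (limma adjusted p = 1), and 1.36 higher in PA than in IVP lines with the same SE (limma adjusted p = 0.921). S100A4 was 0.97 higher in NT than in IVP lines with an SE of 0.60 (limma adjusted p = 1) and differed by 0.02 between PA and IVP lines. S100A8 was 0.55 higher in PA than in IVP lines with an SE of 0.37 (limma adjusted p = 0.853), with P1 at 20.2 and P4 at 44.9. The SE was 1.31 for S100A1 and 0.81 for S100A11, so that differences of the size of these errors were not detectable with 2 lines per origin. The SEs of S100A10 and S100A12 were 0.30 and 0.34. I2 and I9 shared slide 1, and P1 and P4 shared slide 2, so for this pair slide and origin cannot be told apart by these arrays alone.

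The lines of 1 origin were often further apart than the origins. Of the 7 members, 4 spanned more than 4-fold over the 6 eSLC lines, S100A1 (9.81-fold), S100A2 (94.7-fold), S100A4 (4.59-fold) and S100A11 (6.49-fold), where 14.3% of all genes did and the median span was 1.91-fold. The members were chosen on measured values, so nothing is read from 4 of 7 against this share. S100A10 spanned 1.99-fold and S100A8 3.19-fold. S100A1 was high in I9, N2 and P1 and low in I2, N7 and P4, 1 line of each origin on either side. N7 was the lowest line for 4 of the 7 members, S100A1, S100A10, S100A11 and S100A12, and for 26.6% of all genes. N2 was the highest for S100A1, S100A2, S100A4, S100A11 and S100A12. The share of all genes with N2 highest was not counted, so nothing is read from this list. Before scaling, N2 had the lowest 75th percentile of the arrays (1192, with P1 at 1210). It also had the smallest share of spots well above background (71.2%). Any part of the scaling in the rank of N2 was not tested.

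Over the 6 lines, S100A11 varied with S100A12 (Pearson r = 0.906), S100A10 (r = 0.825) and S100A1 (r = 0.760). S100A1 also varied with S100A12 (r = 0.815), and S100A2 with S100A4 (r = 0.860). N7 was the lowest line for S100A1, S100A10, S100A11 and S100A12, and its part in their r values was not tested. These correlations are descriptions over 6 arrays, and no p is given. Among 9686 genes well above background in all 6 lines, those most like S100A1 were PTGER4, PCGF2 and PLSCR3 (r = 0.992 to 0.996), and those most like S100A2 were ZBTB6, EIF4E2 and PSAT1 (r = 0.990 to 0.993). Those most like S100A4 were WFDC2, TLCD3A and DBI (r = 0.986 to 0.995), and those most like S100A11 were GPX8, IGSF9 and FAM229B (r = 0.994 to 0.995). They are the highest values picked from many genes over few arrays. Over all 8 arrays, where the gap between eSLCs and SCs sets the value, COL1A2, AVPI1 and PCYOX1 were nearest to S100A4 (r = 0.998 each, of 9099 genes).

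**Figure D3:**
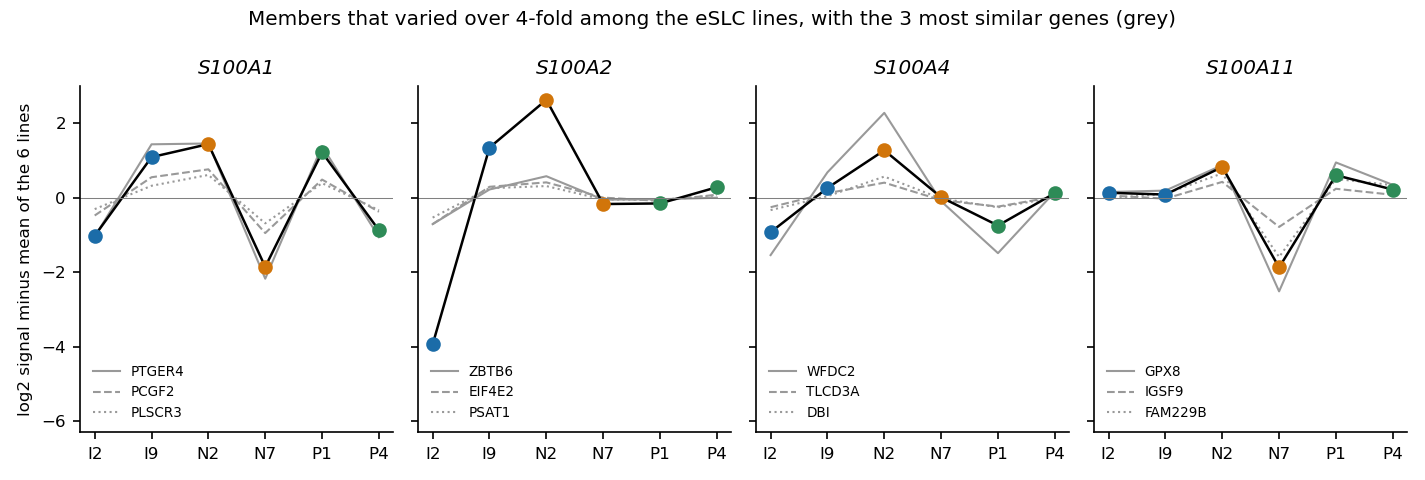
Log2 signal minus the mean of the 6 eSLC lines for the 4 members that spanned more than 4-fold (black line, points coloured blue for IVP, orange for NT and green for PA lines) and, in grey, the 3 genes with the highest Pearson r. S100A11 drops in N7 alone, S100A2 drops in I2, and S100A1 is low in 1 line of each origin.

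The rest of the family was taken as a list of 19 other S100 and fused-type S100 genes, of which 11 had a named probe and were tested. In eSLCs 5 of the 11 were called higher (45.5%) and 1 lower (9.09%), with a median difference of 0.38. S100G, the calbindin that carries calcium across gut and uterine or placental epithelium, rose by 8.20 with an SE of 1.11 (limma adjusted p = 0.00211). Its signal was 3927 in I2, 4913 in I9, 6210 in N2, 380 in N7, 29420 in P1 and 5887 in P4, against the floor in SC P5 and 17.3 in SC P10, so the size of this rise depends on the floor. S100A14, an epithelial S100 protein, rose by 2.65 with an SE of 0.35 (limma adjusted p = 0.00189), from 27430 and 30460 in SCs to between 111400 and 324800 in the 6 lines. S100A16, a widely expressed member, rose by 2.22 with an SE of 0.21 (limma adjusted p = 0.000512), from 7919 and 8320 to between 28470 and 53240. S100A7, psoriasin of stressed skin, rose by 2.54 with an SE of 0.74 (limma adjusted p = 0.0332), from 21.9 and 17.7 to between 38.7 and 271, a dim gene whose call was lost in 11 of 19 other settings, among them without N7, P1, P4 or either SC array. The fifth gene called higher was TCHHL1, a trichohyalin-like fused gene, which was at the floor in N7 as in both SC arrays and lost its call without I2, P1 or either SC array.

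S100B, known from glia, cartilage and fat cells, was the 1 gene called lower. It fell by 2.05 with an SE of 0.28 (limma adjusted p = 0.00208), from 1243 and 1224 in SCs to between 211 and 487 in eSLCs. S100A3 was lower in 5 lines (68.3 to 219, against 908 and 822 in SCs) but at 2147 in N7, and S100A13, which aids the release of FGF1, ranged from 3111 to 8617 in 5 lines and was at 593 in N7, against 10420 and 7910 in SCs. Neither passed the test (limma adjusted p = 0.0856 and 0.203). S100A5 (-0.10) and S100Z (0.38) did not pass either, and S100Z was at the floor in I2, N7, P4 and both SC arrays. CRNN, a fused-type gene of squamous epithelium, fell by 0.96 against the floor (limma adjusted p = 0.00442). It was at the floor in I2, I9, N2, N7 and P4 and at 17.0 in P1, against 25.9 and 28.0 in SCs. The size of this fall depends on the floor, and the gene was not called because of the 2-fold limit.

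By their RefSeq positions, 14 S100 genes with a named probe lie on chromosome 3, in the order S100A1, S100A13, S100A14, S100A16, S100A2, S100A3, S100A4, S100A5, S100A7, S100A8, S100A12, S100A9, S100A11 and S100A10. Neighbours in this order differed widely. S100A3, S100A4 and S100A5 follow each other and differed by -2.11, -10.98 and -0.10. S100A14 and S100A16, which were higher in every eSLC line, lie beside S100A2. Of 15 other genes tested between or within 250 kb of them, THEM4 (3.89, limma adjusted p = 8.5e-05) and TDRKH (2.85, limma adjusted p = 0.000523) were called higher and 0 lower, with a median of 0.19. Of all genes, 19.7% were called higher and 15.7% lower, so nothing is read from this count. TDRKH was at the floor in both SC arrays, so the size and the p of its rise depend on the floor.

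Partners, regulators and receptors of S100 proteins formed a list of 38 genes, of which 32 had a named probe and 31 were tested. Of these, 10 were called higher (32.3%) and 7 lower (22.6%), with a median difference of 0.12. Among annexins, ANXA5 fell by 2.37 with an SE of 0.19 (limma adjusted p = 0.000273). ANXA1, the partner of S100A11, was lower on all 6 eSLC arrays (4671 to 28420, against 36480 and 41890) and did not pass the test (-1.66, SE 0.66, limma adjusted p = 0.0856). ANXA2, the partner of S100A10, was between 83480 and 248000 in eSLCs and at 158100 and 234700 in SCs, so that it overlapped as S100A10 did (-0.34, SE 0.35, limma adjusted p = 0.460). ANXA11 was lower by less than 2-fold (-0.76, limma adjusted p = 0.0179), with -0.21 by another probe. No probe could be named AHNAK.

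MYH9, the myosin heavy chain that S100A4 binds, fell by 1.67 with an SE of 0.41 (limma adjusted p = 0.0196), from 1272 and 542 in SCs to between 123 and 362 in eSLCs. Another MYH9 probe gave -0.68, and the call was lost in 4 of 19 other settings, among them without SC P5. CACYBP, a ligand of S100A6, was between 15040 and 23700 in eSLCs and at 18660 and 23010 in SCs (-0.15, SE 0.26). Of the receptors, AGER did not pass the test (0.12, SE 0.26, limma adjusted p = 0.735). TLR4 fell by 2.08 with an SE of 0.51 (limma adjusted p = 0.0193), from 122 and 40.5 to between the floor and 27.9. Another TLR4 probe gave -0.06, and the call was lost in 5 of 18 other settings, among them without SC P5.

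Transglutaminases, which cross-link S100 proteins in epithelia, gave the largest rises of this list. TGM1 rose by 6.97 (limma adjusted p = 0.00079), from not well above background in SCs to between 844 and 4874, at least 125-fold against the floor, and TGM2 rose by 5.44 (limma adjusted p = 0.00348). PLA2G4A, the phospholipase that releases arachidonic acid, rose by 3.80 (limma adjusted p = 0.00301), and S100PBP, an S100P-binding protein, rose by 3.05 (limma adjusted p = 0.000454) by its brightest probe, while another probe gave -0.53. The largest falls were in the plasminogen activator PLAT (-4.84, limma adjusted p = 0.0152), plasminogen itself, PLG (-3.80, limma adjusted p = 4.9e-05), and the adhesion molecule ALCAM (-3.78, limma adjusted p = 0.00611). PLG was at the floor in all 6 lines and at least 13.9-fold lower, although another of its probes gave 0 difference. With no spread among the floored values of these lines, the p of PLG depends on the floor. The PLAT and ALCAM calls were lost without either SC array, and the TGM2 call without SC P10.

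Other EF-hand proteins, which bind calcium through the same fold, formed a list of 67 genes with 59 named and 55 tested, of which 15 were called higher (27.3%) and 16 lower (29.1%), with a median of -0.10. The largest rise was that of CALML5, a calmodulin-like protein of keratinocytes (12.96, limma adjusted p = 1.94e-05), at 39750 to 212200 in eSLCs and near the floor in SCs. CALB1, calbindin of kidney and neurons, rose at least 688-fold against the floor (limma adjusted p = 0.000123), 9.43 on the log2 scale by the brightest probe and 6.90 by another. The actin bundlers of the plastin family split, PLS1 rising by 6.02 (limma adjusted p = 4.26e-05) and LCP1 by 5.86 (limma adjusted p = 0.0176), while PLS3 fell by 5.37 (limma adjusted p = 0.00104). The matrix proteins SMOC1 (-10.18, limma adjusted p = 2.85e-06) and SPARC (-4.98, limma adjusted p = 0.00145, with probes from -9.14 to -2.26) also fell, as did EHD2 of caveolar membranes, which was at the floor in all 6 lines and at least 55.8-fold lower (-5.80, limma adjusted p = 5.16e-06), with -2.74 by another probe. SMOC1 lay between the floor and 20.9 in the 6 lines, so the size of its fall and its p depend on the floor. The p of EHD2 does too. Another LCP1 probe gave 1.97, and the LCP1 call was lost in 6 of 19 other settings, among them without either SC array.

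**Figure D4:**
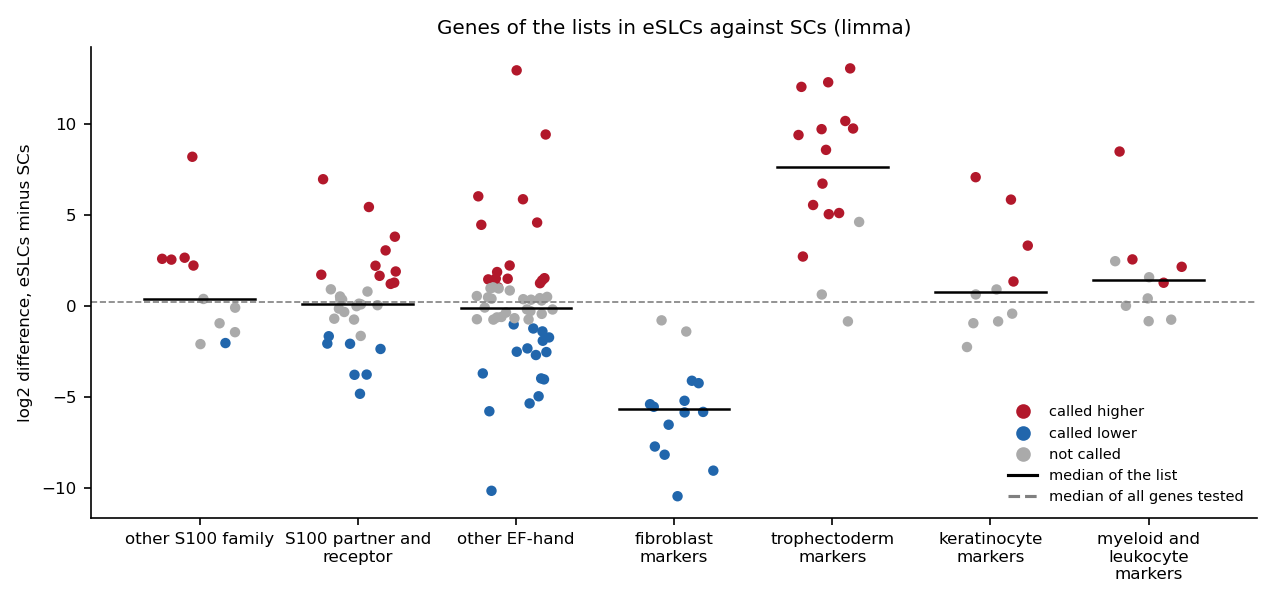
Log2 difference, eSLCs minus SCs, of each tested gene of the 7 lists (red, called higher; blue, called lower; grey, not called), with the median of each list as a black bar and the median of all genes tested (0.23) as a dashed line. Fibroblast markers lie low (median -5.70) and trophectoderm markers high (median 7.65), and the S100, partner and EF-hand lists hold calls in both directions.

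Several S100 genes are keratinocyte genes, so keratinocyte markers were examined beside them. Of 10 tested, 4 were called higher in eSLCs (40%, where 19.7% of all genes were) and 0 lower. The 4 were KRT15, DSG3, PERP and SFN, and the SFN call was lost in 4 of 19 other settings, among them without SC P10. The summed signal was 120500 to 252600 in eSLCs and 38850 to 64320 in SCs. Of the defining markers 0 were called higher, with KRT5 at -2.27 (limma adjusted p = 0.132), KRT14 at -0.96 (limma adjusted p = 0.0489, under 2-fold) and TP63 at 0.90 (limma adjusted p = 0.21). Between origins, 0 genes of any of the 7 lists were called by limma. Between NT and IVP lines, 1 of 11 other S100 genes, 2 of 31 partner genes and 3 of 55 EF-hand genes had an unadjusted p under 0.05. Of all 10958 genes tested, 306 did. Between PA and IVP lines these counts were 0, 1 and 2, and 568 over all genes. Nothing is read from such small counts.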

How the data were processed

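RNA of 6 eSLC lines and 2 SC samples was measured on 8 Agilent bovine arrays. The authors quantified them with Feature Extraction (version 11.5.1.1 per the file headers) and deposited linear signal intensities per spot and a series matrix of processed intensities. The deposited processed signal did not follow the other columns in 6 of the 8 files, so the background-subtracted signal was used, although the processed signal had been planned as the default for such files. Control and outlier spots were left out, spots of 1 probe were averaged, and values were scaled, floored and taken to log2. The brightest probe stood for a gene. Probes were named by accession through the RefSeq table (ARS-UCD2.0, used for names and gene order only). The tests used limma (version 3.58.1, R version 4.3.3), with 4 condition means in 1 fit of 8 arrays and Benjamini-Hochberg adjustment over 10958 genes, and the step was tested on simulated data. The 8 tested genes with a missing array were fitted on the remaining arrays, and none is a member. The number of arrays limits the precision.

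The members and gene lists were chosen with earlier results of these data known. Genes named are the members, the 4 largest calls per direction of the S100, partner and EF-hand lists whose eSLC and SC arrays do not overlap, fixed partners, receptors and defining markers, genes within 250 kb, and the 3 most similar genes. TCHHL1, S100A3, S100A5, S100A13, S100Z, CRNN, AIF1, SPI1, KRT15, DSG3, PERP and SFN were named after their values were seen. The alternatives were other scalings, signals, filters, probe rules and fits, and leaving out each array. The result for 1 listed gene is not reported here.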

Additional observations from a re-analysis of the deposited data

Results flagged for a closer look

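Of the S100 members and the listed genes reported here, CAPS, an EF-hand gene outside the members, had both NT lines below both SC arrays and both PA lines above them. CAPS was at -0.55 on the log2 scale in NT-eSLCs and at 0.50 in PA-eSLCs, each relative to SCs. The difference between NT-eSLCs and PA-eSLCs was not tested.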

How the results depend on the processing

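No paired analysis was possible because the labels give no replicate numbers that pair samples across conditions. With the processed signal as deposited, S100A1 was at -0.89, S100A8 at -1.90 and S100A11 at 4.48, opposite to the values above, S100A4 shrank to -3.10, and the counts of list genes called fell to 1 and 0 (other S100 genes, higher and lower), 1 and 1 (partners) and 3 and 2 (EF-hand genes). In 6 of the 8 files that column did not follow the others. The other settings left S100A1, S100A4, S100A8 and S100A11 in the same direction. Other S100 genes called higher went from 5 to 3 without the filter on dim genes, with normexp (on the median signal), with the SC arrays averaged and with the methods' t-test, and lay between 3 and 5 with 1 array left out (3 without P1, SC P5 or SC P10). Those called lower went from 1 to 2 with median scaling, quantile normalization, the series matrix values or no fold limit, and lay between 1 and 3 with 1 array left out (3 without N2, 2 without N7, P1 or SC P5). Partners called higher lay between 6 (without SC P10) and 10, and lower between 2 (without SC P5) and 8, with 3 lower when the SC arrays were averaged. EF-hand genes called higher were 7 with the series matrix values or averaged SC arrays and between 6 (without SC P10) and 14 with 1 array left out (7 without SC P5). The cause was not tested. The median of all genes moved from 0.23 to 0.12 with quantile normalization and to 0.06 with the series matrix values, and S100A10 is to be read against these. In all 21 alternatives 0 members were called between origins. With the series matrix values, 93 of all genes were called higher and 5 lower in NT than in IVP lines. In PA against IVP lines 0 were called higher and 3 lower with those values. Signals near the floor, such as those of S100A8, have no reliable size.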
